A study of Sus scrofa with 3 samples.

Results

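The genes described here are the heat shock proteins, the J-domain cochaperones that work with them, the BAG exchange factors, the chaperonin subunits and the heat shock transcription factors of pig liver. Members were chosen by name, with a rule set when earlier results of these data were known. Gene IDs belonged when their pig symbol began with HSPA, HSPB, HSPD, HSPE, HSPH or DNAJ, or with BAG, CCT or HSF plus a digit. This gave 65 of the 25322 gene IDs in the deposited tables, of which 11804 had a symbol. The libraries came from livers of male pigs at postnatal day 90, with 1 library each for Enshi black, Chinese wild boar and Large White. The labels do not say whether a library is 1 animal or a pool, and 1 animal is assumed here. Enshi black is a Chinese local breed and Large White a European commercial breed, no treatment is described in the labels, and all 3 libraries share sex, age and tissue. With 1 library per breed, breed, animal and library cannot be told apart, and none of the differences below could be checked against replicates.

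Chaperones bind unfolded or newly made proteins and help them fold, refold or be degraded. HSP70 proteins do this in cycles of ATP use: a J-domain protein brings the client and triggers ATP hydrolysis, and an exchange factor (HSP110, BAG or HSPBP1 proteins) releases the nucleotide so that the client can leave. Chaperonins are closed ring chambers, HSPD1 with its lid HSPE1 in mitochondria and the CCT complex in the cytosol. Heat shock factor HSF1 switches on the stress-inducible members. The liver, which secretes most plasma proteins, relies on the chaperones of the endoplasmic reticulum (ER) as well as on those of the cytosol and mitochondria.

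A gene counted as expressed when it had at least 1 CPM (counts scaled to equal library size) in at least 1 library, and 57 of the 65 members did. The libraries held 20654571 gene counts in Enshi black, 20215871 in Chinese wild boar and 19982627 in Large White, so that 1 count was worth 0.0484, 0.0495 and 0.05 CPM.

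Folds between libraries use counts scaled with TMM factors, while levels are plain CPM. Intervals in parentheses are 95% exact binomial intervals that reflect counting error alone. The size rule, by which a gene is called higher or lower here, was met when the interval bound nearest to 1 lay at least 2-fold away. In Enshi black against Large White, 4 of 57 expressed members passed, or 7.02%, while the rule called 13.1% of all 13228 expressed genes. These were 3 higher and 1 lower, where 4.69% of all genes were called higher and 8.39% lower. In Chinese wild boar against Large White, 3 members passed, or 5.26%, against 6.7% of all expressed genes. All 3 were higher, where 2.96% of all genes were called higher and 3.74% lower. In Enshi black against Chinese wild boar, 3 members passed, again 5.26%, against 11.1%. There 1 was higher and 2 were lower, where 4.03% of all genes were called higher and 7.1% lower. The share of members passing in either direction lay in each comparison below the background, which was not matched to the members by expression level. By direction this did not hold. The 3 members called higher, or 5.26%, lay above the share of all genes called higher in both comparisons with Large White. All these shares rest on 3 or 4 members. The comparisons share libraries, so these counts are not independent. When animals of a breed were assumed to vary with a coefficient of variation of 0.2, DNAJC9 alone of the members still passed, and only in the comparisons that involve Enshi black. DNAJC9 had no count in Enshi black and met the expression limit only through the other libraries. Its interval under this setting depends on a small constant added to its counts, so its passing is no support for the call.

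Markers of liver cell types are given as summed levels in the order Enshi black, Chinese wild boar, Large White, beside what single markers did. All 6 hepatocyte markers matched were expressed in all 3 libraries, with sums of 99658, 77719 and 52849 CPM. ALB set this order, being 2.63-fold higher in Enshi black and 2.12-fold higher in Chinese wild boar than in Large White. The median log2 fold of the hepatocyte list for Enshi black over Large White was -0.21, with ratios of 0.687 for APOA2, 0.743 for CPS1 and 0.619 for TTR. Of 6 stellate cell and fibroblast markers matched 5 were expressed, with sums of 1054, 498 and 285 CPM, and 4 were higher in Enshi black and 2 in Chinese wild boar than in Large White. LUM, 1 of these markers, was at 0 in Large White. The 5 Kupffer cell and macrophage markers summed to 669, 661 and 770 CPM, most of it from C1QA. CSF1R, LYZ and MARCO of that list were lower in Enshi black than in Large White, with ratios of 0.14, 0.15 and 0.252, and the list's median log2 fold was -1.99. The 5 endothelial markers matched summed to 540, 379 and 724 CPM, an order set by STAB1, which was lower in Enshi black and in Chinese wild boar than in Large White. The other 4 endothelial markers lay above 1 for Enshi black over Large White, and MMRN2 was 34.3-fold higher. Neutrophil markers (2) summed to 6.58, 5.14 and 33.7 CPM, mostly from CSF3R, which was lower in both other libraries than in Large White. S100A8, the other neutrophil marker, had 6, 15 and 12 counts and was not expressed by the limit used. Erythroid markers (3) summed to 49.0, 185 and 106 CPM, mostly from HBB, which was lower in Enshi black than in both other libraries. ALAS2 went the other way without passing, with a ratio of 2.65 (1.95 to 3.65) for Enshi black over Large White. HBM had a ratio of 0.938 (0.638 to 1.38) there. T and NK cell markers (4) summed to 87.1, 33.1 and 82.2 CPM, with CD3D and CD8A lower in Chinese wild boar than in Large White. Cholangiocyte markers (3) summed to 7.79, 7.82 and 7.31 CPM and none was called against Large White. Of 9 immediate early genes matched 8 were expressed, with sums of 374, 468 and 610 CPM, and ZFP36 was at 0 in all 3. The part of these lists in the differences described below was not tested. In bulk tissue, fewer cells of a type and less RNA per cell cannot be told apart.

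Most members differed little. Within 1.5-fold either way lay 39 members in Enshi black against Large White, or 68.4% of the 57, compared with 54.8% of all expressed genes. The same held for 48 members, or 84.2%, in Chinese wild boar against Large White, compared with 65.8%, and for 43 members, or 75.4%, in Enshi black against Chinese wild boar, compared with 59.3%. The median log2 fold of the members was 0.21, 0.13 and 0.00 in these comparisons, where the median over all expressed genes was 0.01, 0.00 and 0.01. By scaled counts, 27 members were highest in Enshi black, 19 in Chinese wild boar and 11 in Large White, or 47.4%, 33.3% and 19.3%. Over all expressed genes the corresponding shares were 37.4%, 29.5% and 33.1%. Genes were not matched by expression level for any of these shares.

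**Figure D1:**
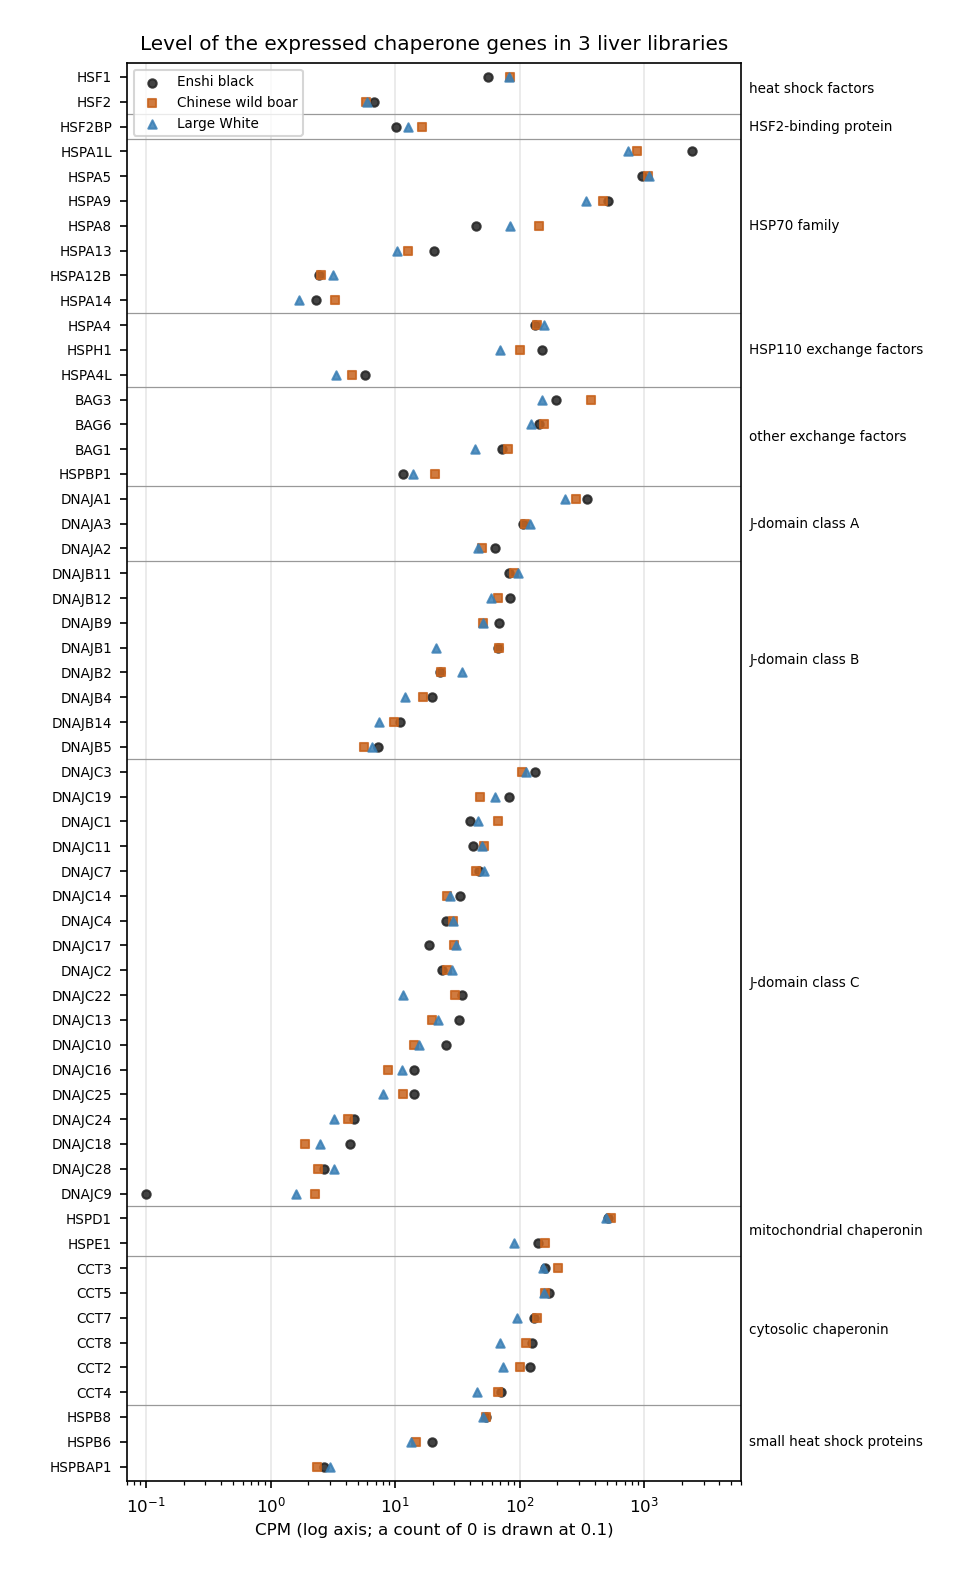
Level of each of the 57 expressed members in each library, in CPM on a log axis, grouped by role and ordered within a role by mean level. HSPA1L stands out at 2433 CPM in Enshi black, and DNAJC9, with no count there, is drawn at 0.1.

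The 65 members together took 7733 CPM in Enshi black, 6423 in Chinese wild boar and 5403 in Large White. HSPA1L alone made up 31.5% of member counts in Enshi black, 13.7% in Chinese wild boar and 13.8% in Large White. Without HSPA1L the sums were 5300, 5546 and 4658 CPM, and the highest library was then Chinese wild boar. The summed fold of Enshi black over Large White was 1.34 (1.33 to 1.35) with HSPA1L and 1.06 (1.06 to 1.07) without it.

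The heat shock factors did not pass in any comparison. HSF1, the main activator of the heat shock response, had 55.6 CPM in Enshi black, 83.7 in Chinese wild boar and 82.6 in Large White. Its ratio was 0.63 (0.584 to 0.68) for Enshi black over Large White and 0.622 (0.577 to 0.671) for Enshi black over Chinese wild boar. The library with the most HSPA1L counts was thus the one with the lowest HSF1 level. In RefSeq (Sscrofa11.1) the HSF1 locus overlaps that of DGAT1, so reads of this region may have been hard to assign. HSF2, a related factor, had 6.73, 5.89 and 5.96 CPM, with every pairwise interval spanning 1. HSF2BP, named for binding HSF2 and known for its role in meiotic recombination in mice, had 10.2, 16.5 and 12.8 CPM. HSF5 had 7, 8 and 7 counts and was below the expression limit.

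The HSP70 family held the widest differences among the abundant members, and its cytosolic genes did not move together. The gene ID named HSPA1L had 2433 CPM in Enshi black, 878 in Chinese wild boar and 745 in Large White. Its level in Enshi black was 3.06-fold higher (3.0 to 3.11) than that in Large White and 2.6-fold higher (2.55 to 2.64) than that in Chinese wild boar. Chinese wild boar over Large White gave a ratio of 1.18 (1.15 to 1.2). HSPA1L belongs to a cluster of near-identical HSPA1 genes and its value is uncertain. In RefSeq the HSPA1L locus spans 28719 bases on chromosome 7 of Sscrofa11.1 and contains the locus HSP70.2, for which HSPA1A and HSPA1B are given as synonyms. HSP70.2, the stress-inducible HSP70 of the pig and not a member by name, had its own gene ID with 37 counts in Enshi black, 36 in Chinese wild boar and 41 in Large White. The HSP70.2 ratio of Enshi black over Large White was 0.817 (0.509 to 1.31). How reads were divided among these copies is not given in the sources used here, so the HSPA1L counts cannot be tied to 1 copy.

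HSPA8, the constitutive cytosolic HSP70, was lowest in the library where HSPA1L was highest. It had 44.5 CPM in Enshi black, 143 in Chinese wild boar and 83.9 in Large White. It was lower in Enshi black than in Chinese wild boar, with a ratio of 0.292 (0.271 to 0.315), and the ratio over Large White, 0.496 (0.458 to 0.538), did not pass. Chinese wild boar over Large White gave 1.7 (1.6 to 1.81). Counts of HSPA1L were 54.7 times those of HSPA8 in Enshi black, 6.15 times in Chinese wild boar and 8.88 times in Large White. These are count ratios between genes of unlike length, so they can be compared between libraries only. HSPA8, like HSPD1 and HSPE1, has processed pseudogenes in humans, and reads shared with such copies in the pig could be lost or misassigned, so its value too is uncertain.

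The organelle HSP70s differed less. HSPA5 (BiP), the HSP70 of the ER lumen, had 960 CPM in Enshi black, 1082 in Chinese wild boar and 1101 in Large White, with ratios of 0.816 (0.8 to 0.832) and 0.982 (0.963 to 1.0) for Enshi black and Chinese wild boar over Large White. HSPA9 (mortalin), the mitochondrial HSP70, had 511, 468 and 341 CPM, with ratios of 1.4 (1.36 to 1.44) and 1.37 (1.33 to 1.41). Both libraries stood above Large White for HSPA9, by less than the size rule asks. HSPA13, a microsomal HSP70-like ATPase, had 20.5, 12.7 and 10.4 CPM, and its ratio of Enshi black over Large White was 1.85 (1.57 to 2.2). HSPA14, which acts at the ribosome with DNAJC2, had 2.32, 3.26 and 1.7 CPM, and HSPA12B, an endothelial HSP70-like protein, 2.47, 2.52 and 3.15 CPM. These low members had 34 to 66 counts per library, and their intervals are wide.

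**Figure D2:**
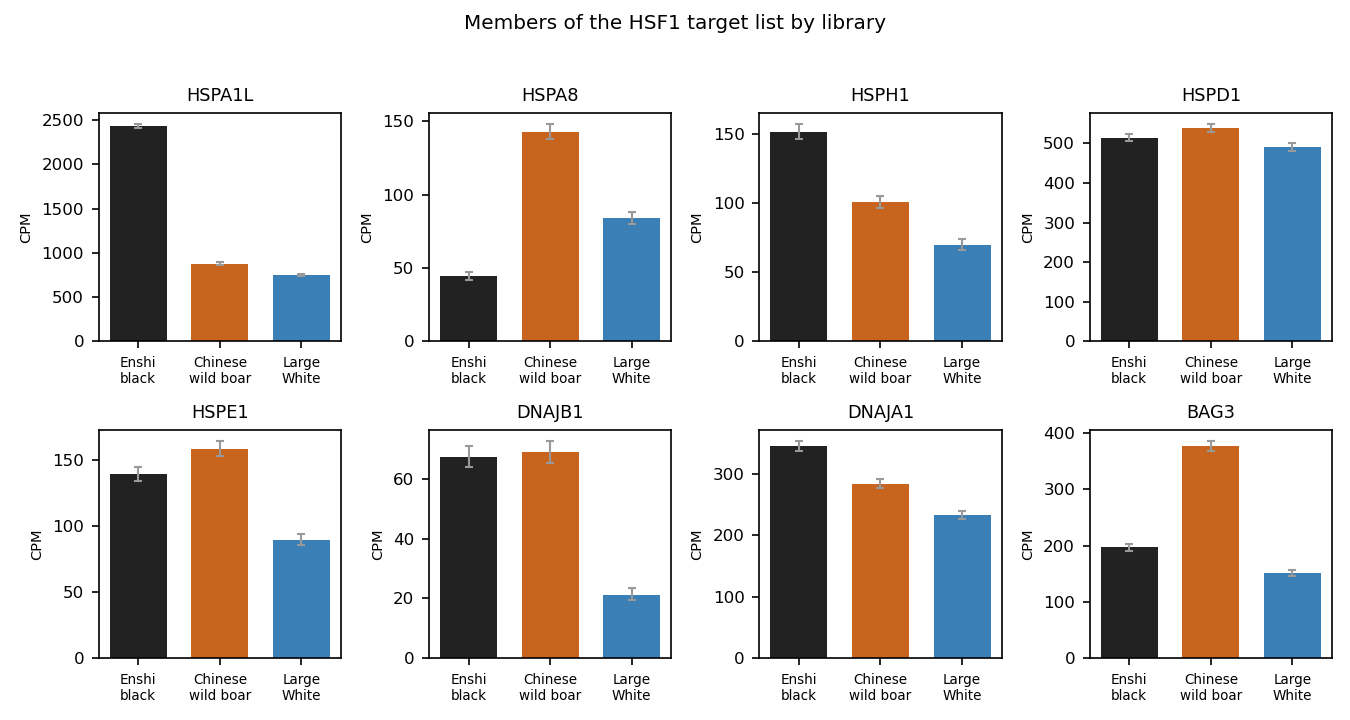
Level in CPM, from 0, of the 8 matched members of a list of HSF1 targets in each library. The list holds the constitutive HSPA8 and the gene ID named HSPA1L, whose counts cannot be tied to 1 copy. Bars are single libraries and whiskers are 95% exact Poisson intervals for counting error only. HSPA1L is highest in Enshi black, BAG3 and HSPA8 are highest in Chinese wild boar, and DNAJB1 is at 67.3 and 68.9 CPM in Enshi black and Chinese wild boar beside 21.3 in Large White.

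The BAG proteins and HSPBP1, the exchange factors outside the HSP110 group, were highest in Chinese wild boar. BAG3, which couples HSP70 to the small heat shock protein HSPB8 and to selective autophagy, had 197 CPM in Enshi black, 377 in Chinese wild boar and 151 in Large White. It was 2.49-fold higher (2.39 to 2.6) in Chinese wild boar than in Large White. Its ratio of Enshi black over Chinese wild boar, 0.49 (0.471 to 0.509), lay just outside the size rule. BAG1, an exchange factor that links HSP70 to the proteasome, had 72.7, 80.8 and 44.0 CPM, with a ratio of 1.83 (1.69 to 1.99) for Chinese wild boar over Large White. BAG6, a quality control factor for membrane proteins, had 143, 157 and 124 CPM. HSPBP1, another HSP70 exchange factor, had 11.7, 20.9 and 13.8 CPM and a ratio of 0.522 (0.444 to 0.613) for Enshi black over Chinese wild boar. All 4 genes were thus highest in Chinese wild boar, although only BAG3 passed. Their summed level was 425 CPM in Enshi black, 636 in Chinese wild boar and 333 in Large White.

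The HSP110 proteins, large HSP70 relatives that act as exchange factors, split. HSPH1, the inducible one, had 152 CPM in Enshi black, 101 in Chinese wild boar and 70.0 in Large White, with a ratio of 2.03 (1.91 to 2.17) for Enshi black over Large White. This ratio fell just outside the size rule and passed when libraries were scaled by total counts, at 2.17 (2.04 to 2.31). HSPA4, the constitutive one, had 134, 138 and 158 CPM, the reverse order. HSPA4L had 5.71, 4.5 and 3.35 CPM. The HSPH1 to HSPA4 count ratio was 1.13 in Enshi black, 0.729 in Chinese wild boar and 0.444 in Large White.

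**Figure D3:**
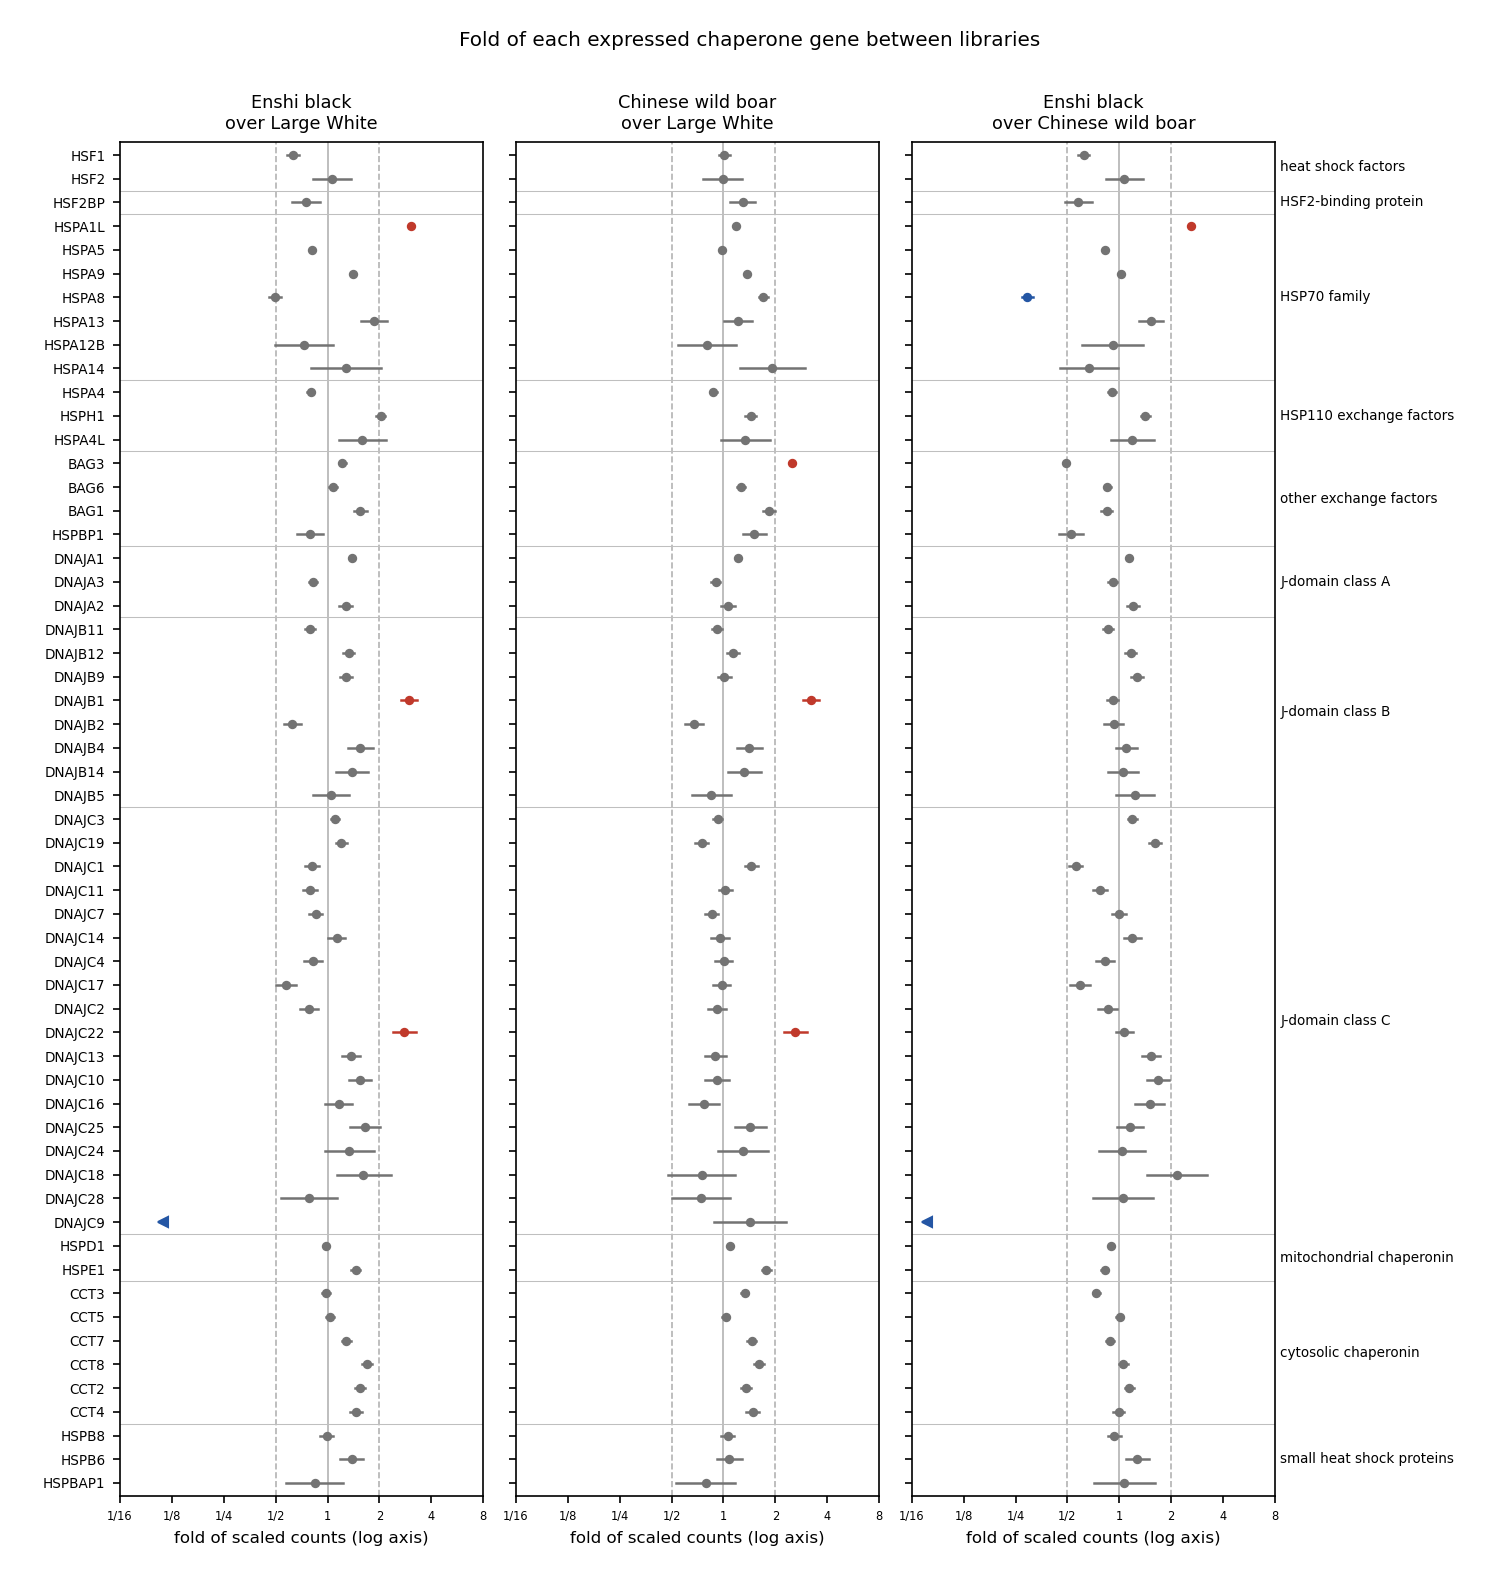
Fold of scaled counts of each expressed member in the 3 comparisons, on a log axis, with 95% exact binomial intervals. Red marks members that passed as higher, blue those that passed as lower, dashed lines the 2-fold limits, and the arrowhead is the interval bound of DNAJC9, which has no count in Enshi black. DNAJB1 and DNAJC22 pass as higher in both libraries set against Large White.

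Of 33 J-domain members 29 were expressed. DNAJB1 (HSP40), the stress-inducible partner of cytosolic HSP70, had 67.3 CPM in Enshi black, 68.9 in Chinese wild boar and 21.3 in Large White. It was 2.96-fold higher (2.65 to 3.3) in Enshi black and 3.23-fold higher (2.89 to 3.61) in Chinese wild boar than in Large White. Large White was low and the other libraries lay close together, with a ratio of 0.916 (0.85 to 0.988) for Enshi black over Chinese wild boar. DNAJC22, a membrane J-domain protein whose fruit fly counterpart acts in endocytosis, had the same pattern, with 34.7, 30.3 and 11.6 CPM. It was 2.79-fold higher (2.41 to 3.25) in Enshi black and 2.61-fold higher (2.24 to 3.05) in Chinese wild boar than in Large White. Both comparisons share the Large White library, so the similar folds are not 2 independent results.

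DNAJC9, a histone chaperone with a J domain, had no count in Enshi black, 46 counts in Chinese wild boar and 32 in Large White. DNAJC9 met the expression limit only through Chinese wild boar and Large White, at 2.28 and 1.6 CPM. It was lower in Enshi black than in both other libraries, and the exact binomial intervals of its ratio ran from 0 to 0.111 over Large White and from 0 to 0.0766 over Chinese wild boar. Taking a floor of 3 counts in Enshi black and the other count as exact, the level was 11.8-fold lower than that in Large White and 16.7-fold lower than that in Chinese wild boar, which is further from 1 than those bounds. The Enshi black library was unusual in this respect: 91 gene IDs had no count there while both other libraries had at least 30 counts, against 0 such IDs for Chinese wild boar and 3 for Large White. The part of this in the DNAJC9 value was not tested. In RefSeq the DNAJC9 locus overlaps FAM149B1.

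Class A and the other class B members varied less. DNAJA1, a cytosolic partner of HSP70, had 345 CPM in Enshi black, 284 in Chinese wild boar and 233 in Large White, with a ratio of 1.38 (1.33 to 1.44) for Enshi black over Large White. DNAJA2, its constitutive relative, had 63.5, 49.6 and 46.6 CPM in the same order. DNAJA3, the mitochondrial member, had 107, 110 and 122 CPM and ran the other way. Among class B members, DNAJB12, which sits in the ER membrane, had 83.5, 67.1 and 58.9 CPM, and its relative DNAJB14 had ratios of 1.39 (1.12 to 1.71) and 1.32 (1.06 to 1.64) for Enshi black and Chinese wild boar over Large White. DNAJB4, a cytosolic relative of DNAJB1, had 19.8, 16.8 and 11.9 CPM, and DNAJB5 had 7.36, 5.59 and 6.56 CPM. DNAJB2, best known from neurons, was the class B member with the lowest ratio in both comparisons with Large White, at 23.1, 23.3 and 34.5 CPM. Its ratio was 0.626 (0.556 to 0.704) for Enshi black and 0.676 (0.6 to 0.761) for Chinese wild boar over Large White. DNAJB13, a sperm flagellum protein, had 1, 7 and 4 counts.

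Class C holds proteins that share little beyond the J domain. Its median log2 fold was 0.16 for Enshi black over Large White and -0.09 for Chinese wild boar over Large White. DNAJC19, of the mitochondrial import motor, had 82.0 CPM in Enshi black, 47.8 in Chinese wild boar and 63.9 in Large White, and its ratio of Enshi black over Chinese wild boar was 1.61 (1.48 to 1.74). DNAJC11, of the mitochondrial inner membrane organising system, had 42.4, 51.5 and 50.2 CPM. DNAJC4 had 25.6, 29.1 and 29.0 CPM, and DNAJC28 2.71, 2.42 and 3.25 CPM. DNAJC17, linked to splicing, had 18.8, 29.8 and 30.6 CPM, with a ratio of 0.575 (0.505 to 0.654) for Enshi black over Large White. It lay closest outside the size rule among J-domain members with a ratio below 1 in that comparison, and its RefSeq locus overlaps 3 other genes.

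Several other class C genes were highest in Enshi black without passing. DNAJC13, of endosomal sorting, had 32.4 CPM in Enshi black, 19.9 in Chinese wild boar and 22.1 in Large White. DNAJC16 had 14.1, 8.8 and 11.4 CPM, DNAJC14 had 33.3, 26.3 and 27.5 CPM, and DNAJC24, which acts in diphthamide synthesis, had 4.65, 4.2 and 3.25 CPM. DNAJC18 had 4.31, 1.88 and 2.5 CPM and a ratio of 2.15 (1.45 to 3.23) for Enshi black over Chinese wild boar, from 89 and 38 counts. DNAJC7, which binds HSP70 and HSP90, had 47.2, 44.3 and 51.8 CPM, and DNAJC2, the ribosome-bound partner of HSPA14, had 23.9, 26.1 and 28.5 CPM, both highest in Large White. DNAJC27 had 18, 4 and 14 counts and DNAJC6 (auxilin) 8, 5 and 11, below the expression limit. DNAJC5B had no count in any library, which allows up to 0.145 CPM in Enshi black, 0.148 in Chinese wild boar and 0.15 in Large White.

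The genes of a fixed ER list did not move as a block. DNAJB12, placed in the ER membrane above, is not on that list and had a ratio of 1.33 for Enshi black over Large White. Other ER genes off the list and not members by name lay below 1 in that comparison, none of them passing. Their ratios were 0.76 for HSP90B1, 0.663 for HYOU1, 0.491 for SIL1 and 0.679 for SEC63. All 8 genes of the ER list were expressed and none passed in any comparison. HSPA5, DNAJB11 and DNAJC1 lay below 1 for Enshi black over Large White, and the other 5 above it. DNAJB11, the J-domain partner of HSPA5 for secretory proteins, had 82.5 CPM in Enshi black, 89.8 in Chinese wild boar and 97.5 in Large White, the same order as HSPA5. DNAJC3, which also binds clients in the ER lumen, had 133, 105 and 113 CPM, and DNAJB9, an inducible partner of HSPA5, had 68.8, 51.0 and 50.4 CPM. DNAJC10, a J-domain disulfide reductase, had 25.7, 14.3 and 15.6 CPM and was highest in Enshi black, with a ratio of 1.68 (1.45 to 1.95) over Chinese wild boar. DNAJC25 had 14.1, 11.5 and 8.01 CPM. DNAJC1, an ER membrane protein at the ribosome, was highest in Chinese wild boar, with 40.0, 67.2 and 46.3 CPM and a ratio of 0.558 (0.511 to 0.609) for Enshi black over Chinese wild boar.

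Of the 10 names of the mitochondrial list 8 matched, all were expressed and none passed in any comparison, with median log2 folds of -0.15, 0.02 and -0.14 in the order of comparisons used above. The chaperonins were lowest in Large White except where a subunit hardly differed. HSPD1 (HSP60), the mitochondrial ring, had 515 CPM in Enshi black, 538 in Chinese wild boar and 491 in Large White, with ratios of 0.982 (0.955 to 1.01) and 1.1 (1.07 to 1.13) for Enshi black and Chinese wild boar over Large White. HSPE1 (HSP10), its lid, had 139, 159 and 89.6 CPM, with ratios of 1.46 (1.37 to 1.55) and 1.77 (1.67 to 1.88). The lid therefore differed more than the ring, although the genes lie side by side and share a promoter in humans. Counts of HSPD1 were 3.69 times those of HSPE1 in Enshi black, 3.39 times in Chinese wild boar and 5.48 times in Large White.

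All 6 expressed CCT subunits lay above 1 for Chinese wild boar over Large White, with ratios of 1.03 to 1.61, while 50.1% of all expressed genes lay above 0 on the log2 scale. CCT8 had 126 CPM in Enshi black, 112 in Chinese wild boar and 69.5 in Large White, with ratios of 1.7 (1.59 to 1.81) and 1.61 (1.51 to 1.72) for Enshi black and Chinese wild boar over Large White. CCT2 had ratios of 1.55 (1.45 to 1.65) and 1.36 (1.27 to 1.45) in these comparisons. CCT4 had 70.7, 66.9 and 45.1 CPM, and CCT7 had 130, 138 and 94.7 CPM. These 4 subunits were lowest in Large White. CCT5, with 172, 161 and 156 CPM, had a ratio of 1.03 (0.984 to 1.08) for Enshi black over Large White. CCT3 had 160, 204 and 153 CPM, and its ratio was 0.978 (0.93 to 1.03) for Enshi black and 1.33 (1.27 to 1.39) for Chinese wild boar over Large White. None of the 6 subunits passed in any comparison. TCP1, the alpha subunit of the same ring and not a member by name, had 111, 111 and 70.4 CPM, close to the pattern of CCT8. CCT6B had 1, 2 and 1 counts and CCT8L2 1, 2 and 3.

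Of the small heat shock proteins, HSPB8 had 53.5 CPM in Enshi black, 53.6 in Chinese wild boar and 50.5 in Large White, and all 3 intervals spanned 1. Its partner BAG3 differed 2.49-fold between Chinese wild boar and Large White, as given above. HSPB6, known from muscle, had 19.9, 14.6 and 13.5 CPM. HSPBAP1, which binds small heat shock proteins, had 2.71, 2.37 and 3.0 CPM, and the testis gene HSPB9 had no count.

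**Figure D4:**
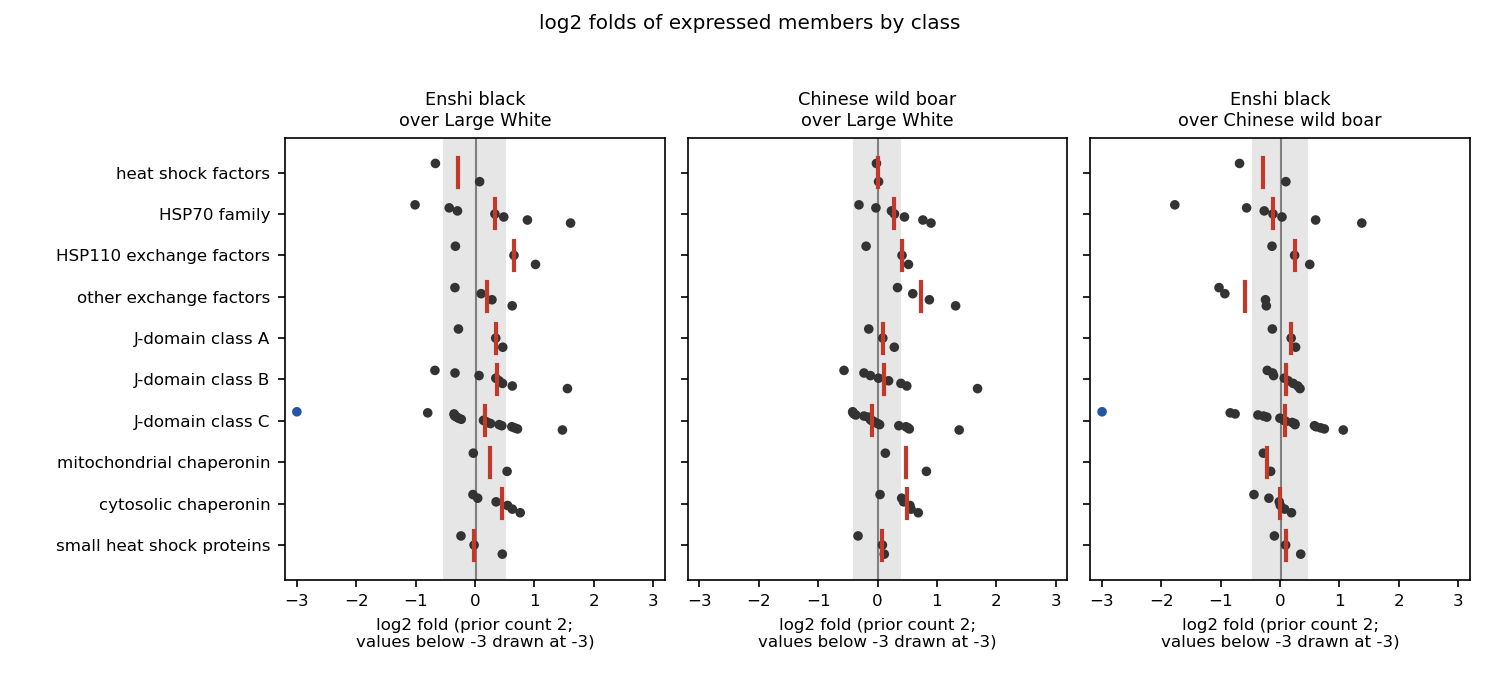
Log2 folds of the expressed members other than HSF2BP, by role in the 3 comparisons, with a dot for each gene and a red bar for each median. The line is the median and the grey band the interquartile range of all 13228 expressed genes, and DNAJC9 is drawn in blue at -3. The BAG proteins and HSPBP1 (other exchange factors) lie at a median of 0.73 for Chinese wild boar over Large White and -0.59 for Enshi black over Chinese wild boar, and the HSP110 exchange factors at 0.41 and 0.24.

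A list of 12 names was gathered as HSF1 targets in human cells, with earlier results of these data known. The shares set beside it are therefore no independent comparison, and those of all members include the listed genes. Of the 12 names 8 matched a gene ID and all 8 were expressed. These were HSPA1L, HSPA8, HSPH1, HSPD1, HSPE1, DNAJB1, DNAJA1 and BAG3. HSPA8 is mainly constitutive, and HSPA1L in humans is a testis gene that heat does not induce, so the list is also given without HSPA1L. For Chinese wild boar over Large White all 8 lay above 0 (median log2 fold 0.64), against 64.9% of all members and 50.1% of all expressed genes, and DNAJB1 and BAG3 passed, where 2.96% of all genes were called higher. For Enshi black over Large White 6 of 8 lay above 0 (median 0.51), against 61.4% of all members and 50.6% of all expressed genes, and HSPA1L and DNAJB1 passed, where 4.69% of all genes were called higher. For Enshi black over Chinese wild boar 3 of 8 lay above 0 (median -0.14), against 50.9% of all members and 50.4% of all expressed genes, with HSPA1L higher and HSPA8 lower. Without HSPA1L, 5 of 7 lay above 0 for Enshi black over Large White (median 0.47, DNAJB1 alone passing), 7 of 7 for Chinese wild boar over Large White (median 0.77) and 2 of 7 for Enshi black over Chinese wild boar (median -0.16). DNAJB1 thus passed over Large White in both libraries, HSPA1L in Enshi black and BAG3 in Chinese wild boar. Set directly against each other, Enshi black and Chinese wild boar differed past the size rule in HSPA1L but not in BAG3. Of 8 expressed immediate early genes, 4 were lower and none higher for Enshi black over Large White, and 5 were lower and 1 higher in Chinese wild boar than in Large White. Of all expressed genes, 8.39% were called lower in Enshi black and 3.74% in Chinese wild boar than in Large White. The part of the immediate early genes in the chaperone values was not tested.

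Among 32 other genes of the pathway, 23 matched a gene ID and 22 were expressed. None passed for Enshi black over Large White, where 12 of 22 lay above 0, against 50.6% of all expressed genes. FKBP5, an HSP90 cochaperone induced by glucocorticoids, was 3.09-fold higher (2.87 to 3.33) in Chinese wild boar than in Large White, with 145 and 46.7 CPM. It was lower in Enshi black, at 69.9 CPM, than in Chinese wild boar, with a ratio of 0.452 (0.424 to 0.482). FKBP5 thus had the order of BAG3, highest in Chinese wild boar and lowest in Large White.

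The cytosolic and ER HSP90 genes lay within 1.5-fold in every comparison, and the mitochondrial one did not. HSP90AA1, the inducible cytosolic form, had 695 CPM in Enshi black, 778 in Chinese wild boar and 734 in Large White. HSP90AB1, the constitutive form, had 742, 679 and 525 CPM, and HSP90B1, the ER form, had 1191, 1293 and 1467 CPM, the order of HSPA5. TRAP1, the mitochondrial form, had 147, 180 and 90.6 CPM, with ratios of 1.52 for Enshi black and 1.98 (1.87 to 2.1) for Chinese wild boar over Large White, neither of which passed.

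Folds drifted with the RefSeq span of genes. Over 10 groups of expressed genes by that span, the median log2 fold of Enshi black over Large White was -0.13 in the shortest group. It was 0.16 in the seventh, the highest, and 0.07 in the longest. For Chinese wild boar over Large White the median was 0.06 in the shortest group and -0.17 in the longest. The members that passed were the same in number after correction for this drift: 4 for Enshi black over Large White, 3 for Chinese wild boar over Large White and 3 for Enshi black over Chinese wild boar.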

How the data were processed

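Per the labels' protocols, liver RNA was read on an Illumina HiSeq from both ends of each fragment, in 3 libraries. The authors deposited raw read counts per Ensembl gene ID. The build Sscrofa10.2 and the tools HTSeq 0.6.1, TopHat2 2.1.0 and edgeR 3.16.3 are listed in the submitters' processing notes. Strand setting, annotation release and the handling of multiply aligned reads are not given in the sources used, so copies and overlapping genes are uncertain: 18 of 65 members overlap another RefSeq locus in Sscrofa11.1. The 5 rows that name no gene stayed out. Of all reads in the tables, the share outside any feature was 19.0% in Enshi black, 18.9% in Chinese wild boar and 22.0% in Large White, and that of ambiguous reads 1.89%, 2.49% and 2.18%.

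Symbols came from a table of gene IDs. TMM factors (edgeR 4.0.16, R 4.3.3) were computed over the 13228 expressed genes and were 1.04 for Enshi black, 0.979 for Chinese wild boar and 0.978 for Large White. Folds carry 95% exact conditional binomial (Clopper-Pearson) intervals, and log2 folds a prior count of 2 (Python 3.11.15, numpy 2.4.6, pandas 2.3.3, scipy 1.17.1, matplotlib 3.10.9). No molecular identifiers are described, so intervals and floors reflect counting error alone, and no test across animals is possible with 1 library per breed. Simulated counts with 200 changed genes were used to check the size rule. The members and lists were chosen with earlier results of these data known. All expressed members other than J-domain genes, every member that passed, and the most abundant J-domain genes per class were to be named. Further J-domain genes, HSP70.2, TCP1, HYOU1, SIL1 and SEC63 were named after their values were seen. Alternatives were scaling by total counts or by DESeq2 1.42.0 size factors, other expression filters, other near bounds, an assumed variation between animals, a correction for gene span (64 of 65 members had one) and leaving out the HSPA1 copies. No protein, promoter or genome sequence was used here.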

Additional observations from a re-analysis of the deposited data

How the results depend on the processing

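The number of members passing was 4 in Enshi black over Large White, 3 in Chinese wild boar over Large White and 3 in Enshi black over Chinese wild boar. It stayed within 1.5 times these values with total counts, DESeq2 size factors, the span correction, a filter of 10 CPM or none, and without the HSPA1 copies. The filter of 10 CPM takes out DNAJC9, which reached 2.28 CPM at most. With a near bound of 1.5 the number passing was 9, 7 and 6, and with a near bound of 4 it was 1, 0 and 1. Assuming that animals vary with a coefficient of variation of 0.2, it was 1, 0 and 1, and with 0.4 again 1, 0 and 1. DNAJC9 was the gene left in both comparisons with Enshi black, where it had no count and where these settings add a small constant to its counts. The folds of HSPA1L, DNAJB1, DNAJC22, BAG3 and HSPA8 therefore do not pass once variation of that size between animals is assumed; the wider interval, not a change in the fold, is what ends the call. Total counts shifted the median over all expressed genes, on the log2 scale, to 0.10 for Enshi black over either other library, and HSPH1 then passed. Of 504 fold values recomputed for named members, 495 kept their status under the size rule, 8 lost a call, 1 gained one and none reversed a call. Most of these values carried no call to begin with, and all 8 losses came with the assumed coefficient of variation of 0.4. Some class medians near 0 changed sign: that of all members for Enshi black over Chinese wild boar was -0.10 as a mean, and that of class C J-domain genes for Enshi black over Large White -0.09 as a mean. No paired analysis was possible because each breed has 1 library. Depth limits statements on members with few counts, such as HSPA14, HSPA12B and DNAJC28.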
